A study of Mus musculus with 34 samples.

Results

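The comparison described here set the medial gastrocnemius, a calf muscle, against the anterior tibialis, the muscle on the front of the shin, in wild-type (WT) mice aged 3 months. It rested on 9 of the 34 Affymetrix expression arrays of a study of muscle glycogen synthase, with 5 arrays of gastrocnemius and 4 of tibialis. The labels name the WT mice only as WT beside the muscle glycogen synthase knockout, and they state the mixed C57BL6/129SV strain for the tibialis arrays and no strain for the gastrocnemius arrays. They give neither the sex nor the animal behind an array, so p-values measure the spread between these samples, which may be technical. RNA was labelled from about 5 µg of total RNA for each muscle array. The liver levels used below came from 4 arrays of WT liver at 3 months, labelled from about 10 µg each. Arrays of the knockout (MGSKO) at the same age, 3 of gastrocnemius and 4 of tibialis, gave the same contrast without any WT array, and 5 arrays of WT gastrocnemius at 8 months gave a further set of levels. All gastrocnemius arrays at 3 months carry one series of title codes, all tibialis arrays another and the liver arrays a further one. The muscle and whatever the codes stand for therefore cannot be told apart. Arrays are named below by the number in that code. WT gastrocnemius has arrays 1 to 5, WT tibialis 1 to 4, MGSKO gastrocnemius 6 to 8 and MGSKO tibialis 5 to 8.

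Limb muscles are built from slow and fast fibres, which carry different forms of myosin, troponin and the calcium pump. Slow fibres work for long periods on fat and oxygen, while the fastest fibres are recruited for short bursts and draw on glycogen. Which fibres a muscle holds depends on its position, its nerve supply and its use, and limb muscles also keep the expression of patterning genes that marked their place in the embryo. Connective tissue, fat, vessels and nerve run through the muscle and add their own transcripts to whole-muscle RNA.

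Both muscles showed the transcripts that define skeletal muscle. The skeletal actin Acta1 read 37786 to 239867 in gastrocnemius and 42257 to 52674 in tibialis, against 41.5 in WT liver. The gastrocnemius arrays also held liver transcripts. Over 472 probe sets bright in WT liver and at least 20-fold dimmer in WT tibialis, the median level was 17.8, 25.5, 5.66, 26.9 and 3.03% of WT liver in gastrocnemius arrays 1 to 5. The same median was 0.911 to 1.23% in the 4 tibialis arrays. The groups did not overlap (15.8 ± 11.04% against 1.08 ± 0.133%, mean ± SD, n = 5 and 4, exact two-sided permutation p = 0.0556). The choice of these probe sets by their low level in the same tibialis arrays partly fixes that outcome. The p-value is therefore not a test of the muscles. For this reason 2856 probe sets over 2-fold brighter in WT liver than in WT tibialis were left out. That rule uses the tibialis level, which is 1 arm of the comparison. Among the 1858 of them that were bright enough to test, 640 were over 2-fold brighter in gastrocnemius and the median difference was 0.68. At the limit of the rule, Cln3, Ppp4r3a and Mindy1 lay just inside (liver above tibialis by 0.9999, 0.9998 and 0.9993 on the log2 scale, and gastrocnemius minus tibialis 0.00, 0.45 and 0.35), and Uhmk1, BC004004 and Acaa1a just outside (1.0002, 1.0002 and 1.0015, and 0.46, −0.74 and −0.11).

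A kidney transcript moved with the liver transcripts. Kap, the androgen-regulated protein of the kidney tubule, read 1516, 4370, 432, 4521 and 346 in gastrocnemius arrays 1 to 5 and 8.80 to 11.3 in tibialis by the dimmer of its 2 probe sets. WT liver read 7.78. Arrays 1, 2 and 4, the highest for liver transcripts, were the highest for Kap as well. Gastrocnemius array 2 stood apart in another way. Its Gapdh control signal at the 3′ end was 130546 against 31482 to 42606 in the other gastrocnemius arrays, and its brightest contractile transcripts stood far above those of every other array. Its signal for the liver transcript Alb, 245380, also lay above the WT liver mean of 63650. The 3′ signal of the Gapdh and actin controls over their 5′ signal, a measure of how complete the labelled RNA was, also separated the groups. It was −0.41 ± 0.20 (log2, range −0.75 to −0.27) in gastrocnemius and 0.07 ± 0.14 (−0.12 to 0.20) in tibialis, with an exact two-sided permutation p of 0.00794, the smallest possible with 5 and 4 arrays. Counts of the gene lists are therefore also given without arrays 1, 2 and 4 where they differ. Of 121 genes named by rule and called, 36 were no longer called there, where 2 gastrocnemius arrays remain, 3 without array 2 and 24 after the subtraction of the liver share described below. None of the 121 changed direction in these fits.

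**Figure D1:**
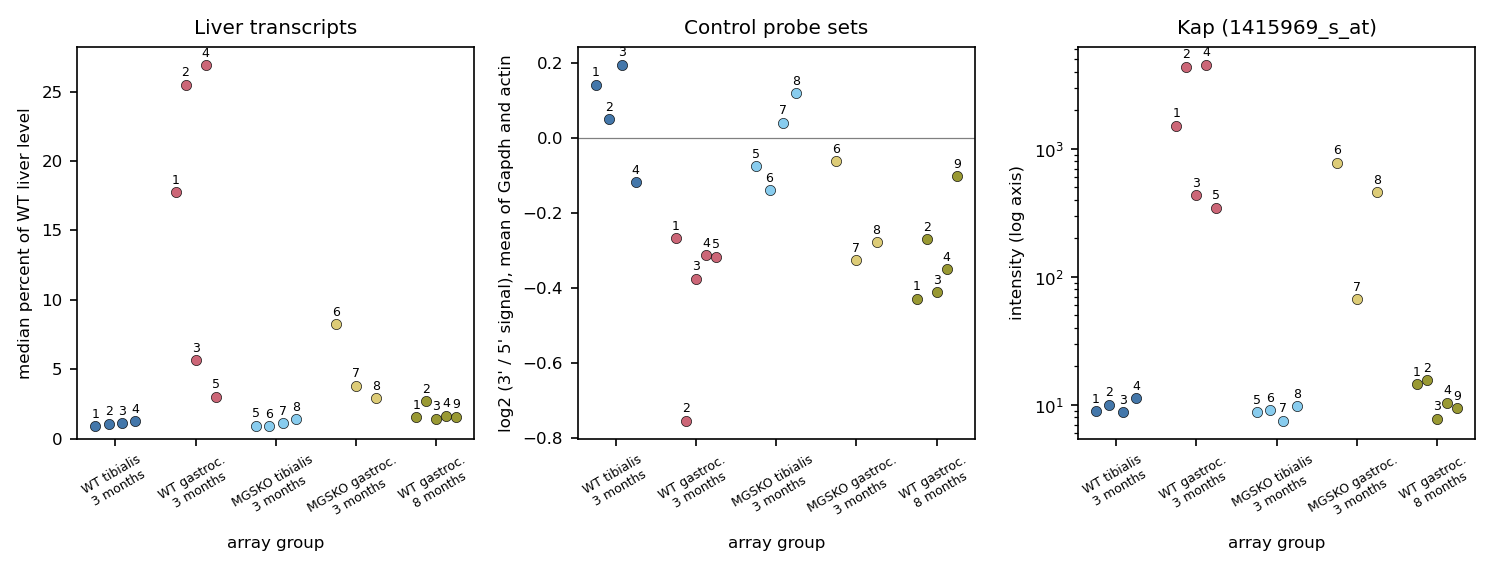
Liver transcript level, the 3′ to 5′ ratio of control probe sets and the kidney transcript Kap, with 1 point for each array and the array number beside it, for the 5 groups of muscle arrays. WT gastrocnemius arrays 1, 2 and 4 sit highest for liver transcripts (17.8, 25.5 and 26.9%) and for Kap, while all WT tibialis arrays sit near 1% and near 10 units of Kap.

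Gastrocnemius and tibialis differed in 2729 of 11718 probe sets (23.3%) at an adjusted p under 0.05 in limma, with Benjamini-Hochberg adjustment over all probe sets tested. Of these, 723 (6.17%) were higher and 2006 (17.1%) were lower in gastrocnemius, and 188 and 276 of them differed over 2-fold. Groups did not overlap in 2596 probe sets (22.2%). The median difference over all probe sets was −0.12, where every difference given here is gastrocnemius minus tibialis on the log2(value + 50) scale, which understates the change of dim genes. Counted as 1 brightest probe set for each gene, 1607 of 7284 genes passed (22.1%), 349 higher (4.79%) and 1258 lower (17.3%). Members of a gene list are read against these shares below. The shares belong to the fit with all arrays. Calls over all probe sets fell from 2729 to 1366 without gastrocnemius arrays 1, 2 and 4, so these shares do not apply to list counts of that fit. Without gastrocnemius arrays 1, 2 and 4, which leaves 2 arrays, 558 probe sets were higher and 808 lower. After subtraction of the liver share from the gastrocnemius arrays only, 783 were higher and 1423 lower. Higher probe sets thus made up 40.8 and 35.5% of the calls, against 26.5% with all arrays as deposited. The subtraction scales up transcripts absent from liver in gastrocnemius alone, so part of the 35.5% is built in. Without array 2 alone, 978 were higher and 2246 lower. The split also depends on the liver rule. With liver-bright probe sets kept, 1653 were higher and 2016 lower (45.1% of calls higher). With every probe set brighter in liver left out, 367 were higher and 1962 lower (15.8%).

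By the brightest probe set of each gene, the largest differences without overlap were those of Ddit4, Cebpd and Kap, which were higher in gastrocnemius, and of Tbx1, Aqp4, Nrep and Aplnr, which were lower. Lack of overlap was part of the rule that picked the largest differences, so it is not further evidence for the genes it picked. Ddit4, an inhibitor of mTOR growth signalling that responds to glucocorticoids and low oxygen, read 10991, 9914, 12418, 11424 and 11963 in the gastrocnemius arrays and 2364, 1218, 1297 and 581 in the tibialis arrays. Every gastrocnemius array lay far above every tibialis array, and the difference was 8.94-fold (3.16, SE 0.29, adjusted p = 1.38e-04). Cebpd, a transcription factor induced by glucocorticoids and inflammation, read 10088, 11894, 13996, 11512 and 8326 against 2496, 1354, 1705 and 981 (6.93-fold, 2.79, SE 0.24, adjusted p = 1.03e-04). Tnfrsf12a, the receptor of the cytokine TWEAK, stood at 1.97 (adjusted p = 2.79e-04), and Rsrp1, a nuclear protein rich in arginine and serine, at 2.08 by 1 of its 3 probe sets (adjusted p = 0.00166). Kap also met the rule by its brighter probe set (2.71, SE 0.61, adjusted p = 0.00963), with gastrocnemius arrays at 4951, 10165, 1377, 11893 and 1299 in the order of their liver share. By its dimmer probe set it had a difference of 4.58, and by the brighter one it stood at 1.14 without arrays 1, 2 and 4.

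Among the genes lower in gastrocnemius, Aplnr, the apelin receptor of endothelial cells, read 473, 401, 508, 289 and 445 against 2031, 1869.7, 2779 and 1286 (4.22-fold, −2.08, SE 0.21, adjusted p = 2.41e-04). Nrep, a small protein of regenerating and developing tissue, read 1394, 1026, 1264, 893 and 1508 against 5367, 4982, 6170.2 and 4803 (−2.10, SE 0.17, adjusted p = 5.61e-05). Tfrc, the transferrin receptor that brings iron into cells, read 1650.3, 1316, 1331, 1874 and 1501 against 4744, 4887, 5819 and 6583 (−1.81, SE 0.15, adjusted p = 8.57e-05), though only 1 of its 2 probe sets was called. Aqp4, the water channel of the fast fibre membrane, stood at −2.14 (adjusted p = 3.29e-04, 1 of 2 probe sets). The groups did not overlap in any of these 4 genes, as the rule for the largest differences required. Mrtfa, a coactivator that senses actin, stood at −1.69 (adjusted p = 2.05e-04), and Cish, an inhibitor of cytokine signalling, at −1.75 (adjusted p = 0.00272) with tibialis arrays spread over 5432, 1997, 2801 and 1436. Rnase1, a secreted ribonuclease, read 288, 1404, 1968 and 299.7 in tibialis and 165 to 261 in gastrocnemius (−1.63, SE 0.48, adjusted p = 0.0318), so that arrays 2 and 3 of tibialis carried most of its difference. It was not called without gastrocnemius arrays 1, 2 and 4 (adjusted p = 0.157).

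**Figure D2:**
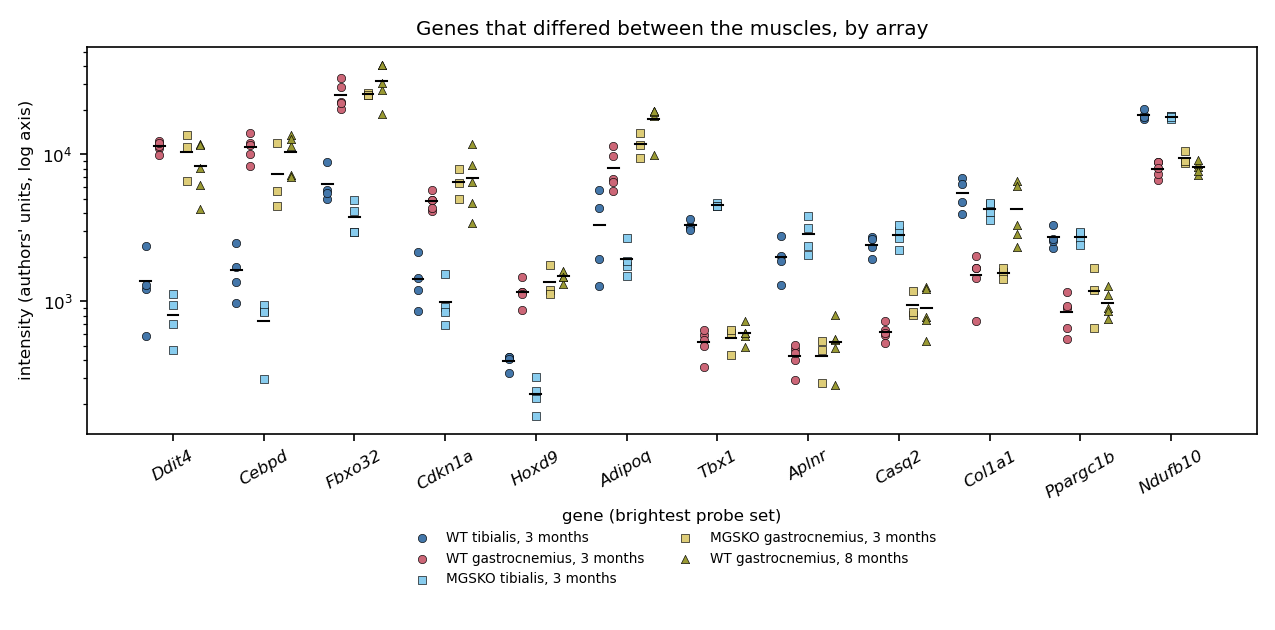
Intensity in the authors' units on a log axis for 12 genes that differed between the muscles, with 1 point for each array and a bar at the group mean. Ddit4, Cebpd, Fbxo32, Cdkn1a and Hoxd9 are higher and Tbx1, Aplnr, Casq2, Col1a1, Ppargc1b and Ndufb10 lower in every WT gastrocnemius array than in every WT tibialis array, while the Adipoq groups overlap (gastrocnemius 5661 to 11477, tibialis 1279 to 5752).

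Genes of the slow contractile apparatus were higher in gastrocnemius, with 6 of 12 tested members higher, 2 lower and a median of 0.76 (4.79% of all genes were higher and the median of all genes was −0.13). Tnnt1, the slow form of troponin T, read 3206, 2909, 1430.1, 3360.1 and 4552 in gastrocnemius and 750.1, 833, 702 and 441 in tibialis (4.13-fold, 2.05, SE 0.29, adjusted p = 9.91e-04). Myl2, the regulatory light chain of slow and cardiac myosin, read 11910.5, 17942, 10571, 13039 and 14459 against 4711, 2245, 4791 and 2120.2 (4.1-fold, 2.03, SE 0.27, adjusted p = 6.68e-04). In both genes the lowest gastrocnemius array was array 3 and stayed above the highest tibialis array. Tnni1, the slow inhibitory troponin, read 2784, 2429, 1690.3, 2419 and 3294 against 631, 942, 443 and 563 (1.90, SE 0.22, adjusted p = 3.91e-04). Myh7, the slow myosin heavy chain itself, read 3581, 2112, 1675, 3166 and 4903 against 782, 639, 1138 and 562 (3.65-fold, 1.87, SE 0.30, adjusted p = 0.00171). Tnnc1, the slow and cardiac calcium sensor of troponin, read 4703, 4049, 2681, 4235 and 6511 against 1171, 1067, 1658 and 825 (1.85, SE 0.25, adjusted p = 7.25e-04). Array 3 was the lowest gastrocnemius array in all 5 genes, and array 5 was the highest in each except Myl2, whose highest was array 2. All 5 passed whichever array was left out, and also without arrays 1, 2 and 4, where their differences were 1.87, 1.92, 1.84, 1.86 and 1.82. In whole-muscle RNA, more cells of a type and more RNA in each such cell cannot be told apart.

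The stretch of 250 bases before the first listed start of each of these genes is shown where it held a searched motif, because the 5 genes moved together. The motifs were the E-box CAGCTG, bound by myogenic basic helix-loop-helix factors, the MCAT element CATTCC of TEAD factors, and the MEF2 core TAAAAATA, each on both strands. None of these overlapped another in the stretches shown. They occur in 12.8, 12.6 and 2.48% of 27025 RefSeq promoter windows of the same length. Sequences are from RefSeq (GRCm38.p6), run 5′ to 3′ on the strand of the gene, and have the motifs in capitals. Tnni1 (chr1:135799171-135799420, plus strand) held an E-box 68 bases and a MEF2 core 44 bases before the start, Myh7 (chr14:54994627-54994876, minus strand) an MCAT element 201 bases before it and Tnnc1 (chr14:31208062-31208311, plus strand) an MCAT element 58 bases before it.
Tnni1: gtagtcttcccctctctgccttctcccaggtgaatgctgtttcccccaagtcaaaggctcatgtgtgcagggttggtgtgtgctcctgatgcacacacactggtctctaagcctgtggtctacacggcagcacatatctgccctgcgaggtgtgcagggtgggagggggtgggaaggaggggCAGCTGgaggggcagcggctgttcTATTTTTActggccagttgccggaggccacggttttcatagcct
Myh7: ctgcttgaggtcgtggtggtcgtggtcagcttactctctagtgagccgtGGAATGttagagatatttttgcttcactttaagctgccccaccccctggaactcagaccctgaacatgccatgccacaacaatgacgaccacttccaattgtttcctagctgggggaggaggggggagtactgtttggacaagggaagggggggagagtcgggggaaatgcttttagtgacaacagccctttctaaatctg
Tnnc1: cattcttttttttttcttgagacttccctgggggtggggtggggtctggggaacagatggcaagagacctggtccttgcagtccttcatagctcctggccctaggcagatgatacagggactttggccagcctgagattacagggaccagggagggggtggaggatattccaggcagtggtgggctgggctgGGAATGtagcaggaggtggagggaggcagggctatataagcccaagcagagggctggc
The windows of Tnnt1 (chr7:4515976-4516225, minus strand) and Myl2 (chr5:122092474-122092723, plus strand) held none of these letters.

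The other members of the slow list did not all go with the core. Csrp3, a stretch-sensing protein of the Z-disc, was higher in gastrocnemius (0.995, SE 0.29, adjusted p = 0.0293) with overlapping groups, at 7996, 9059.5, 5925, 7708 and 14789.7 against 6816, 5156, 2847 and 3486. Actn2, the Z-disc actinin of all fibres, and Smpx, a small membrane-linked muscle protein, were lower (−0.49 and −0.36, adjusted p = 0.0336 and 0.0453). Myl3, the essential light chain of slow myosin, read 8839.8, 11531, 8728, 10261 and 10809.8 against 6112, 12438, 9298 and 6298 and was not called by this brightest probe set (0.29, SE 0.21, adjusted p = 0.343), though 1 of its 3 probe sets was. The slow tropomyosin Tpm3 (0.38, SE 0.13, adjusted p = 0.0549, with 2 of its 4 probe sets called higher), the stretch-responsive Ankrd2 (0.53, adjusted p = 0.147) and the slow calcineurin-binding Myoz2 (−0.29, adjusted p = 0.174) did not pass either. Without arrays 1, 2 and 4 the list had 5 members higher and 0 lower, with Csrp3, Actn2 and Smpx not called (adjusted p = 0.129, 0.267 and 0.235).

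Of the 13 fast contractile genes 0 were higher and 1 was lower in gastrocnemius. That gene was Myh1, the heavy chain of intermediate fast fibres, which read 18981, 32818, 23294, 21299 and 24878 against 39052, 36793, 37309 and 41738 (1.62-fold lower, −0.70, SE 0.16, adjusted p = 0.00983, 2 of 3 probe sets). Myh1 stood at −0.44 (adjusted p = 0.12) after subtraction of the liver share. Myh4, the heavy chain of the fastest fibres, read 34473, 173644, 45354, 49104 and 46663 against 49074, 49773, 45569 and 56604 (0.20, SE 0.38, adjusted p = 0.739), and Myh2, of the more oxidative fast fibres, 21965, 20275, 22210.4, 18157 and 25136 against 23656, 27839, 25464 and 30408 (−0.32, SE 0.13, adjusted p = 0.109). The fast troponin and light chain genes Tnni2, Tnnc2, Tnnt3, Mylpf and Myl1, with Tpm1, Actn3 and Myoz1, had small differences from −0.01 to 0.44 that rested on gastrocnemius array 2. Tnni2, the fast inhibitory troponin, read 49447, 264475, 65491, 71717 and 66527 against 79608, 83636, 69986 and 81821. Array 2 was the highest of all 9 arrays in each of these 8 genes and in Myh4. A dimmer probe set of Tnni2 was called lower (−1.10, adjusted p = 3.09e-04), as was 1 of the 3 of Tpm1 (−0.55, adjusted p = 0.0397). Without array 2 the list median went from 0.20 to −0.15, Tnni2 stood at −0.33 and Tpm1 at 0.01, and 1 member was higher and 1 lower, as were 1 and 1 without arrays 1, 2 and 4. The member higher in both fits was Mylk2, the skeletal myosin light chain kinase, which with all arrays stood at 0.49 (adjusted p = 0.102) and without array 2 passed (adjusted p = 0.0239). Myom2, of the M-band of fast fibres, stood at 0.19 (adjusted p = 0.427).

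**Figure D3:**
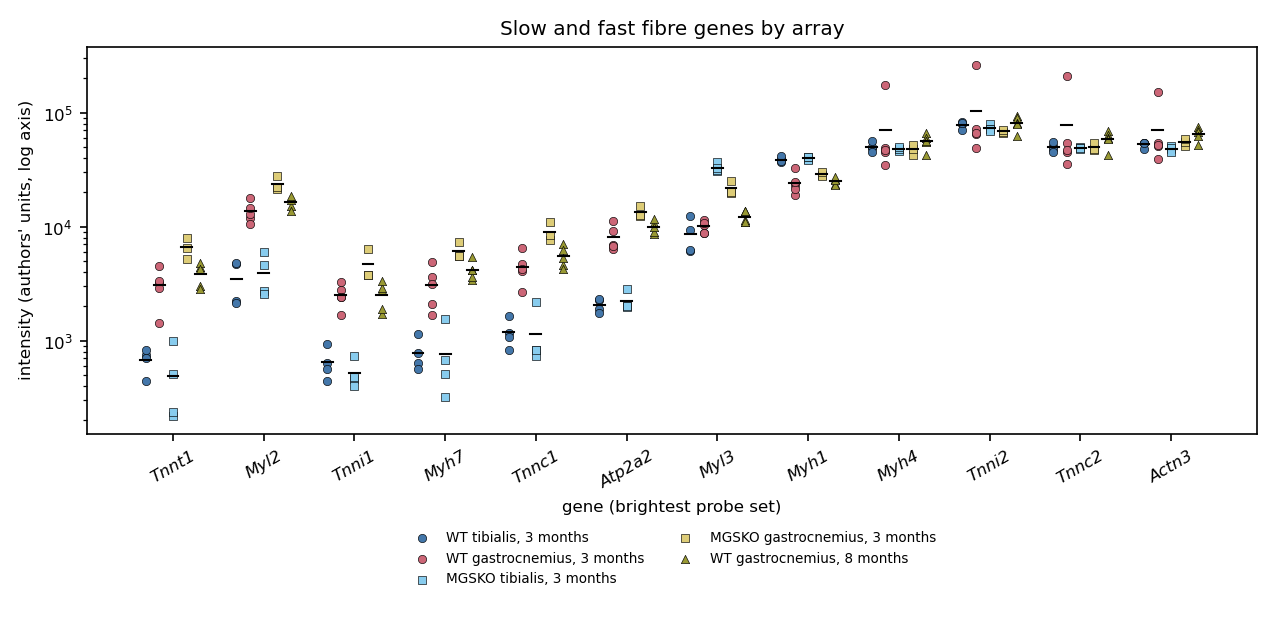
Intensity on a log axis for 7 genes of slow fibres (Tnnt1 to Myl3, with the slow calcium pump Atp2a2) and 5 of fast fibres, with 1 point for each array and a bar at the group mean. Slow genes except Myl3 are higher in every WT gastrocnemius array than in every WT tibialis array, Myh1 is lower, and gastrocnemius array 2 stands alone at the top of Myh4, Tnni2, Tnnc2 and Actn3 (49447 to 264475 for Tnni2).

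Calcium handling genes split, with 3 of 16 higher and 7 lower (median −0.16). Atp2a2, the calcium pump of slow and cardiac muscle, read 9081, 6926, 6321, 6794 and 11135 against 2253, 1903, 2295 and 1748 (3.79-fold, 1.92, SE 0.18, adjusted p = 1.49e-04), with no overlap. Sln, a small peptide that uncouples the pump, was higher as well (1.13, SE 0.18, adjusted p = 0.0019). Jph1, a junctophilin that ties the calcium store to the surface membrane, named after its values were seen, was the third (1.46, SE 0.45, adjusted p = 0.0365). Casq2, the cardiac and slow form of the calcium-binding protein of the store, went the other way and read 740, 594, 641, 520 and 607 against 2731, 2648, 2333 and 1947 (3.67-fold lower, −1.87, SE 0.14, adjusted p = 4.62e-05). Cacnb1, a subunit of the voltage sensor, was lower by 1 of 2 probe sets (−0.98, SE 0.17, adjusted p = 0.00271). The other 5 lower members, among them Pln, the inhibitor of the pump, lay between −0.55 and −0.46. Without arrays 1, 2 and 4 the counts were 2 higher and 2 lower, with Jph1 and Pln not called (1.88 and −0.44, adjusted p = 0.0873 and 0.208).

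The largest difference towards tibialis belonged to a member of the list of limb patterning factors. Tbx1, a T-box factor known from head and pharyngeal muscle development, read 588, 544, 493, 358 and 643 in gastrocnemius and 3266, 3649, 3148 and 3067 in tibialis (5.87-fold lower, −2.55, SE 0.16, adjusted p = 2.28e-05). The arrays of each muscle lay close together and far from those of the other. Hoxd9, a homeobox gene of the limb, was higher in gastrocnemius and read 1156, 869, 1469, 1149 and 1117 against 418, 418, 406 and 325 (2.7-fold, 1.43, SE 0.15, adjusted p = 2.95e-04), and its neighbour in the same cluster, Hoxd8, read 2142, 1244, 2736, 1838 and 2241 against 1026, 958, 1175 and 694 (1.02, SE 0.22, adjusted p = 0.0076). Lbx1, which guides muscle precursors into the limb, read 1678, 1539, 1829, 1557 and 1689.6 against 4192, 3334, 3318 and 2500.4 (−0.97, SE 0.15, adjusted p = 0.00153, 1 of 2 probe sets). Prrx1, a homeobox gene of limb mesenchyme (−0.93, SE 0.16, adjusted p = 0.00221, 1 of 4 probe sets), Tbx15 of fast fibres and limb mesenchyme (−0.86, SE 0.20, adjusted p = 0.0115, 1 of 2) and Hoxa10 (−0.49, SE 0.14, adjusted p = 0.0322) were lower too. In all, 2 of 20 tested members were higher and 5 lower, with a median of −0.27 (4.79 and 17.3% of all genes were higher and lower). Without arrays 1, 2 and 4, 3 were higher and 3 lower. Tbx15 and Hoxa10 were no longer called there (−0.50 and −0.45, adjusted p = 0.13 and 0.126).

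Of 19 myogenic and fibre type regulators 1 was higher and 8 were lower (median −0.42). Ppargc1b, a coactivator of mitochondrial genes, read 906, 556, 925, 663 and 1157 against 2321, 2591, 3311 and 2657 (3.17-fold lower, −1.67, SE 0.20, adjusted p = 4.14e-04). Its relative Ppargc1a (−0.74, SE 0.16, adjusted p = 0.00913, 4 of 5 probe sets) and their nuclear receptor partner Esrra (−0.89, SE 0.12, adjusted p = 8.93e-04) were lower with it, as was Esrrb (−0.65, adjusted p = 0.0336). Myod1, the myogenic factor that is more abundant in fast fibres, read 1152, 863, 950, 766 and 1412 against 1866, 1856, 1758 and 2056 (−0.87, SE 0.17, adjusted p = 0.00474). Myog, myogenin, which is linked to slow and denervated fibres, was the member that was higher, at 536, 434, 564, 492 and 399.8 against 125, 182, 242 and 281 (1.09, SE 0.19, adjusted p = 0.00262). Nfix (2 of 4 probe sets), Mef2a (1 of 4) and Mitf lay between −0.56 and −0.42 (adjusted p = 0.0175, 0.0277 and 0.04). Without arrays 1, 2 and 4 the counts were 1 higher and 3 lower, with Ppargc1a at −0.55 (adjusted p = 0.107). Esrrb, Nfix, Mef2a and Mitf were not called there either (adjusted p = 0.299, 0.137, 0.179 and 0.279), and Mitf was not called without array 2 (−0.38, adjusted p = 0.0502).

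At the neuromuscular junction, where the motor nerve meets the fibre, 1 of 9 genes was higher and 2 were lower (4.79 and 17.3% of all genes). Musk, the receptor kinase that organises the junction, read 931, 619, 737, 746 and 1331 against 152, 148, 184 and 291 (3.76-fold, 1.91, SE 0.23, adjusted p = 3.94e-04). Rapsn, which clusters acetylcholine receptors, read 716, 704, 692, 516 and 673 against 1162, 1086, 953 and 985 (−0.63, SE 0.13, adjusted p = 0.00666), and Agrn, the nerve signal that acts on Musk, was lower by −0.75 on the log2 scale (adjusted p = 0.01). The regeneration list, which shares Sln and Myog with the lists above, had 2 of 9 members higher and 1 lower, the embryonic light chain Myl4 (−0.71, SE 0.18, adjusted p = 0.0153). With arrays 1, 2 and 4 left out, Agrn and Myl4 were not called (−0.54 and −0.84, adjusted p = 0.0755 and 0.0531), which left 1 higher and 1 lower at the junction and 2 higher and 0 lower in the regeneration list.

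Growth and wasting genes had 7 of 15 members higher and 2 lower, with a median of 0.59. Besides Ddit4, Fbxo32, the muscle ubiquitin ligase atrogin, read 20459, 33217, 28923, 22597 and 22289 against 8832, 5725, 4946 and 5442 (4.1-fold, 2.04, SE 0.20, adjusted p = 1.98e-04), and Cdkn1a, an inhibitor of the cell cycle, 4922, 4118, 4902, 4299 and 5751 against 2178, 1438, 1185 and 858 (3.47-fold, 1.79, SE 0.22, adjusted p = 5.05e-04). The groups did not overlap in either gene. The metallothionein Mt2 (1.43, SE 0.21, adjusted p = 0.00114) was higher as well, and so were Gadd45a, Foxo1 and Foxo3, named after their values were seen (0.96, 0.91 and 0.72, adjusted p = 0.00411, 0.00458 and 0.00998). Foxo1 and Foxo3 are transcription factors that act on atrogin. Igfbp5, a binding protein of insulin-like growth factors, was lower, at 3602, 2530.2, 4304, 3821 and 4426 against 13689, 10251, 13016 and 11719.7 (−1.71, SE 0.17, adjusted p = 2.41e-04, 1 of 2 probe sets), as was Inhba, an activin subunit, named after its values were seen (−0.96, SE 0.31, adjusted p = 0.0437). The list kept 7 higher and 2 lower without arrays 1, 2 and 4.

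Immediate early and heat shock genes, which respond within minutes to hours of handling or stress, had 10 of 26 members higher and 2 lower (median 0.30). Jun read 8895, 6672, 10151, 6800.1 and 9544 against 2874, 4225, 2908 and 3853 (2.41-fold, 1.27, SE 0.18, adjusted p = 9.68e-04, 1 of 2 probe sets), and Ccn2, Klf9 (3 of 5 probe sets) and Myc stood at 0.87, 0.67 and 0.65 (adjusted p = 0.00471, 0.0102 and 0.0032). Egr1 and Dusp1 were the members that were lower, named after their values were seen (−0.57 and −0.74, adjusted p = 0.03 and 0.0112). Clock genes went both ways, with 3 of 17 higher and 4 lower (4.79 and 17.3% of all genes). Cry2, a repressor of the clock, read 1105, 754, 1481, 958 and 1399 against 144, 499.6, 169.8 and 106 (4.7-fold, 2.23, SE 0.33, adjusted p = 0.00122), and Rora, which drives Bmal1, was higher by all 3 of its probe sets (0.92, SE 0.16, adjusted p = 0.00272), as was Nfil3, named after its values were seen (1.06, adjusted p = 0.0126). Dbp, a clock output factor of high daily amplitude, read 340.4, 429, 415, 362 and 446 against 1370.3, 1404, 1368 and 653 (2.68-fold lower, −1.42, SE 0.21, adjusted p = 0.00124), and Bhlhe40 read 1862, 993, 1063, 1447 and 2420.2 against 3559, 3498, 4134 and 2773 (−1.20, SE 0.24, adjusted p = 0.00582). The immediate early and heat shock list had 7 higher and 0 lower (median 0.55) without arrays 1, 2 and 4, and the clock list 2 higher and 1 lower. Egr1, Dusp1, Nfil3 and Bhlhe40 were not called there (adjusted p = 0.117, 0.0868, 0.076 and 0.0595). The time of day at which each muscle was taken is not in the labels, and its part in these values was not tested. Odc1, which starts polyamine synthesis, read 12312, 13141, 12120.4, 10637 and 13522 against 4914, 4826, 4120.4 and 2979 (2.95-fold, 1.56, SE 0.16, adjusted p = 2.41e-04, 2 of 3 probe sets).

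Many genes of mitochondrial respiration were lower in gastrocnemius. Of 44 tested genes of oxidative phosphorylation 0 were higher and 25 lower, with a median of −0.50, against 17.3% lower among all genes. Ndufb10, a subunit of complex I, read 6662, 8858, 8842, 7390.5 and 8026 against 17314, 18423, 20509 and 17828 (2.33-fold lower, −1.22, SE 0.13, adjusted p = 2.80e-04). Cox7a1, the muscle form of a cytochrome oxidase subunit, read 7211, 6078, 9026, 7629 and 10291 against 20337, 18884, 17934 and 17473 (−1.23, SE 0.16, adjusted p = 5.86e-04), and the complex I subunits Ndufs8 (5 of 6 probe sets) and Ndufa5 stood at −1.15 and −0.98 (adjusted p = 3.92e-04 and 6.99e-04). Groups did not overlap in any of these 4 genes. In the citric acid cycle 13 of 20 genes were lower and 1 higher (median −0.49). Cs, citrate synthase, read 11803, 14258, 13363, 11187 and 15338 against 23294, 19419, 21227 and 23592 (−0.73, SE 0.13, adjusted p = 0.00345, 2 of 3 probe sets), Sdhb stood at −0.66, Dlat at −0.71 and Dlst at −0.69 (adjusted p = 0.0051, 0.00296 and 0.00497). Idh2, named after its values were seen, was the one that was higher (0.47, SE 0.13, adjusted p = 0.0277). Without arrays 1, 2 and 4 the lower counts were 16 of 44 and 5 of 20, at medians of −0.45 and −0.39, and after subtraction of the liver share they were 17 and 8. Removal of the same arrays moved the median of all probe sets from −0.12 to −0.04, and lower calls over all probe sets from 2006 to 808.

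Genes of glycogen and of glucose use stood near the background, with 0 of 19 glycogen genes higher and 4 lower (median −0.24) and 3 of 21 genes of glucose uptake and glycolysis higher and 4 lower (median −0.09). Gys1, muscle glycogen synthase, read 4871, 4437, 6378, 3955 and 5525 against 9636, 9958, 9308 and 8184 by its brighter probe set (1.85-fold lower, −0.89, SE 0.15, adjusted p = 0.00256). Its dimmer probe set read 2624, 2333, 2983, 1796 and 2804 against 1462, 2630, 1716 and 3810 and was not called (0.14, SE 0.26, adjusted p = 0.732). Gbe1, the branching enzyme, read 868, 501, 627, 672 and 696 against 1459, 1399, 1303 and 1438 (−1.02, SE 0.15, adjusted p = 0.00115), and Stbd1, which anchors glycogen to membranes, and the phosphorylase kinase subunit Phkg1 stood at −0.58 and −0.41 (adjusted p = 0.0258 and 0.0388). Removal of arrays 1, 2 and 4 left 2 glycogen genes lower, with Stbd1 and Phkg1 not called (adjusted p = 0.0881 and 0.286), and 3 glycolysis genes were higher and 3 lower. Hk2, the hexokinase of muscle, read 5313, 4769, 6873, 5276 and 7615 against 12496, 13235, 11785 and 10792 (−1.03, SE 0.16, adjusted p = 0.00143), while Pdk4, which shuts pyruvate out of the mitochondria, read 23883, 41738, 30887, 25464 and 28914 against 16092, 9869.6, 13700.4 and 12258 (1.21, SE 0.19, adjusted p = 0.00162). Fbp2, the muscle fructose bisphosphatase, and the glucose transporter Slc2a3 were the others that were higher (0.80 and 0.76, adjusted p = 0.00606 and 0.005).

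Fatty acid uptake and oxidation had 4 of 19 genes higher and 0 lower, with 8 further members left out as bright in liver. Acot2, a mitochondrial thioesterase, read 997, 1011, 1248, 724 and 1275 against 301, 374, 524 and 372 (1.31, SE 0.19, adjusted p = 0.00112). Mlycd, malonyl-CoA decarboxylase, stood at 0.87, the uncoupling protein Ucp3 at 0.87 and the fatty acid transporter Cd36 at 0.90 by 2 of 3 probe sets (adjusted p = 0.0023, 0.00292 and 0.00851). Of 13 genes of oxygen binding and the creatine energy buffer 0 were higher and 6 lower (median −0.51). The creatine transporter Slc6a8 read 2828, 2932, 3848, 2789 and 4156 against 6619.5, 5855, 6401 and 6086 (−0.92, SE 0.15, adjusted p = 0.00192, 1 of 2 probe sets), and mitochondrial creatine kinase Ckmt2, adenylate kinase Ak1 (1 of 2) and Vegfb stood at −0.63, −0.58 and −0.77 (adjusted p = 0.0135, 0.00532 and 0.00571). Cd36 was not called without arrays 1, 2 and 4 (0.95, adjusted p = 0.0689), and 2 of these 13 were lower there, with Ak1 and Vegfb not called (adjusted p = 0.0542 and 0.0617). Sod2 (2 of 3 probe sets) and Prdx2, which remove superoxide and peroxide, were the 2 lower members of 11 antioxidant genes (−0.48 and −0.56, adjusted p = 0.0135 and 0.0089), with Mt2 the 1 higher. This list had 2 higher and 2 lower without arrays 1, 2 and 4, and Sod2 was not called (adjusted p = 0.0853).

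Collagen and matrix genes were lower in gastrocnemius, with 14 of 26 lower, 1 higher and a median of −0.67. Col1a1, a chain of the main fibrillar collagen, read 1674, 731, 2042, 1438 and 1691 against 4737, 6935, 6274 and 3938 (3.62-fold lower, −1.86, SE 0.27, adjusted p = 0.00117). Col3a1 read 4696, 3337, 5347, 3508 and 4677 against 11391, 12529, 13034 and 10573 (2.77-fold lower, −1.47, SE 0.16, adjusted p = 2.95e-04), and Col6a2, of the collagen that surrounds fibres, 2029, 1828, 2326, 1804 and 2599 against 5536, 6029, 6589 and 4470.1 (−1.40, SE 0.16, adjusted p = 3.29e-04). Col1a2 and Sparc, a collagen-binding matrix protein, stood at −1.29 and −1.18 (adjusted p = 7.76e-04 and 3.29e-04), and the crosslinking enzyme Lox, named after its values were seen, was the member that was higher (0.57, SE 0.18, adjusted p = 0.0389). The lower count was 12 without arrays 1, 2 and 4 and 13 after subtraction of the liver share. Tendon genes had 5 of 8 lower and 1 higher (median −1.004). Tnmd, tenomodulin, read 753, 588, 1263, 649 and 915 against 1693, 3345, 2792 and 1890.5 (−1.49, SE 0.25, adjusted p = 0.00221), Fmod, fibromodulin, 3830.2, 2660.3, 6184, 3363 and 5402 against 8624, 10644, 10980 and 6886 (−1.15, SE 0.24, adjusted p = 0.00724, 5 of 6 probe sets), and Thbs4 and Kera stood at −1.07 and −0.94 (adjusted p = 7.57e-04 and 0.00163). The tendon list had 3 lower and 1 higher (median −0.74) without arrays 1, 2 and 4, and Fmod was not called (−0.65, adjusted p = 0.082). The summed level of 11 tendon markers was 11571 to 18498 in gastrocnemius and 21538 to 31066 in tibialis. How much tendon each muscle sample held is not in the labels, and its part in the collagen values was not tested. Of 15 fibroblast genes 4 were lower, and 3 of these 4 were the collagens Col1a1, Col1a2 and Col3a1 of the matrix list, with the proteoglycan Lum the other (−0.86, SE 0.13, adjusted p = 0.00158).

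Fat markers went the other way. Of 7 adipocyte genes 6 were higher and 0 lower (median 0.93). Lipe, hormone-sensitive lipase, read 2148, 1396, 2047, 1668 and 2864 against 543, 812, 698 and 623 (2.83-fold, 1.501, SE 0.20, adjusted p = 6.95e-04), and Pnpla2, the lipase that opens fat breakdown, 12857, 10733, 14027, 11464 and 16518 against 7012, 6340.1, 6560.4 and 4839.8 (1.07, SE 0.16, adjusted p = 0.0013). Adipoq, adiponectin, read 6759, 5661, 9799, 6531 and 11477 against 1953, 4295, 5752 and 1279, so that the groups overlapped in 1 pair of arrays (1.45, SE 0.39, adjusted p = 0.0213), and Adig stood at 0.75 (adjusted p = 0.0162). The list had 5 higher (median 1.31) without arrays 1, 2 and 4, and Adipoq was not called (1.90, adjusted p = 0.0604). The summed level of 10 adipocyte markers was 68525 to 95381 in gastrocnemius and 29588 to 50476 in tibialis. This sum includes 2 genes that were left out of the test as bright in liver. Fat tissue taken with the muscle and fat transcripts of the fibres cannot be told apart here.

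Endothelial markers stood near the background. Of 14 endothelial genes 0 were higher and 3 lower (median −0.18), where 17.3% of all genes were lower at a median of −0.13. The lower ones were the growth factor receptors Kdr and Flt1 (2 of 3 probe sets) and the receptor Tie1 (−0.57, −0.67 and −0.56, adjusted p = 0.0336, 0.0382 and 0.0437). Without arrays 1, 2 and 4, 0 endothelial genes were lower. Of 11 smooth muscle and pericyte genes 4 were lower (median −0.44). Smtn, smoothelin, read 1266, 1025, 1563, 1114 and 1236 against 3435, 3061, 2858 and 2584 (−1.24, SE 0.15, adjusted p = 3.94e-04), and Acta2, Myl9 and Myh11 stood at −0.80, −0.77 and −0.55 (adjusted p = 0.00319, 0.00794 and 0.00685). Of these 11, 3 were lower without arrays 1, 2 and 4, with Acta2 not called (adjusted p = 0.0534). All 3 tested brown fat genes were lower, namely Ppargc1a, Dio2 (1 of 2 probe sets) and Cox8b (−0.80 and −0.59 for the last pair, adjusted p = 0.0158 and 0.0201), and none of them is restricted to brown fat. None of the 3 was called without arrays 1, 2 and 4 (adjusted p = 0.107, 0.0929 and 0.106), and after subtraction of the liver share 1 was. Macrophage markers had 1 of 14 higher, the scavenger receptor Cd163 (0.81, SE 0.21, adjusted p = 0.0191), and neutrophil markers 1 of 7 lower, Ltf (−1.47, SE 0.48, adjusted p = 0.0447), with tibialis arrays at 228, 734, 1382 and 362. Ltf was called neither without arrays 1, 2 and 4 nor without array 2 (adjusted p = 0.252 and 0.0601). The summed level of 9 neutrophil markers was 2232, 8352, 30990.2 and 2419 in the tibialis arrays and 1683 to 2596 in gastrocnemius, so tibialis arrays 2 and 3 stood apart, as they did for Rnase1. Satellite cell (6 tested), lymphocyte (5), Schwann cell (5), mast cell (4), keratinocyte (4) and erythroid (2) markers had 0 called.

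The remaining lists had few calls. Ribosomal protein genes had 1 of 16 lower, Rps15 (−0.49, 1 of 2 probe sets), and proteasome genes 2 of 28 higher, Psmc5 and Psmd4, and 1 lower, Psma3 (0.59, 0.36 and −0.38). Lysosome and autophagy genes had 3 of 14 higher and 0 lower, namely Bnip3, Sqstm1 and Ulk1 (0.63, 0.58 and 0.58, adjusted p = 0.0128, 0.00981 and 0.0262). Unfolded protein response genes had 1 of 9 lower, Ddit3 (−0.75, adjusted p = 0.00764), and cholesterol and fatty acid synthesis 1 of 14 lower, the desaturase Scd2 (806, 554, 664, 758 and 792 against 1544, 1545, 1778 and 1374, −1.08, SE 0.14, adjusted p = 6.56e-04, 1 of 2 probe sets). Z-disc and cytoskeleton genes had 1 of 26 higher and 2 lower, the actin-linked Fhl1 (−0.51, adjusted p = 0.0314) beside Csrp3 and Actn2. Interferon and antigen presentation had 1 of 11 higher, H2-D1 (0.48, adjusted p = 0.0411, 1 of 2 probe sets), and the list of other liver cells 1 of 2 higher, Stab2 of sinusoidal endothelium (0.65, adjusted p = 0.0136). Of the 4 sex-linked genes tested 0 were called, and the Y-linked Eif2s3y read 504 to 1389 in gastrocnemius and 1047 to 1583 in tibialis. Without arrays 1, 2 and 4 the ribosomal, unfolded protein response, interferon, other liver cell, endothelial and neutrophil lists had 0 called, the proteasome and Z-disc lists 0 higher and 1 lower each, and the keratinocyte list 1 lower. Psmd4 was not called without array 2 (adjusted p = 0.052). Of 19 hepatocyte genes 18 were left out as bright in liver and 0 were tested.

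**Figure D4:**
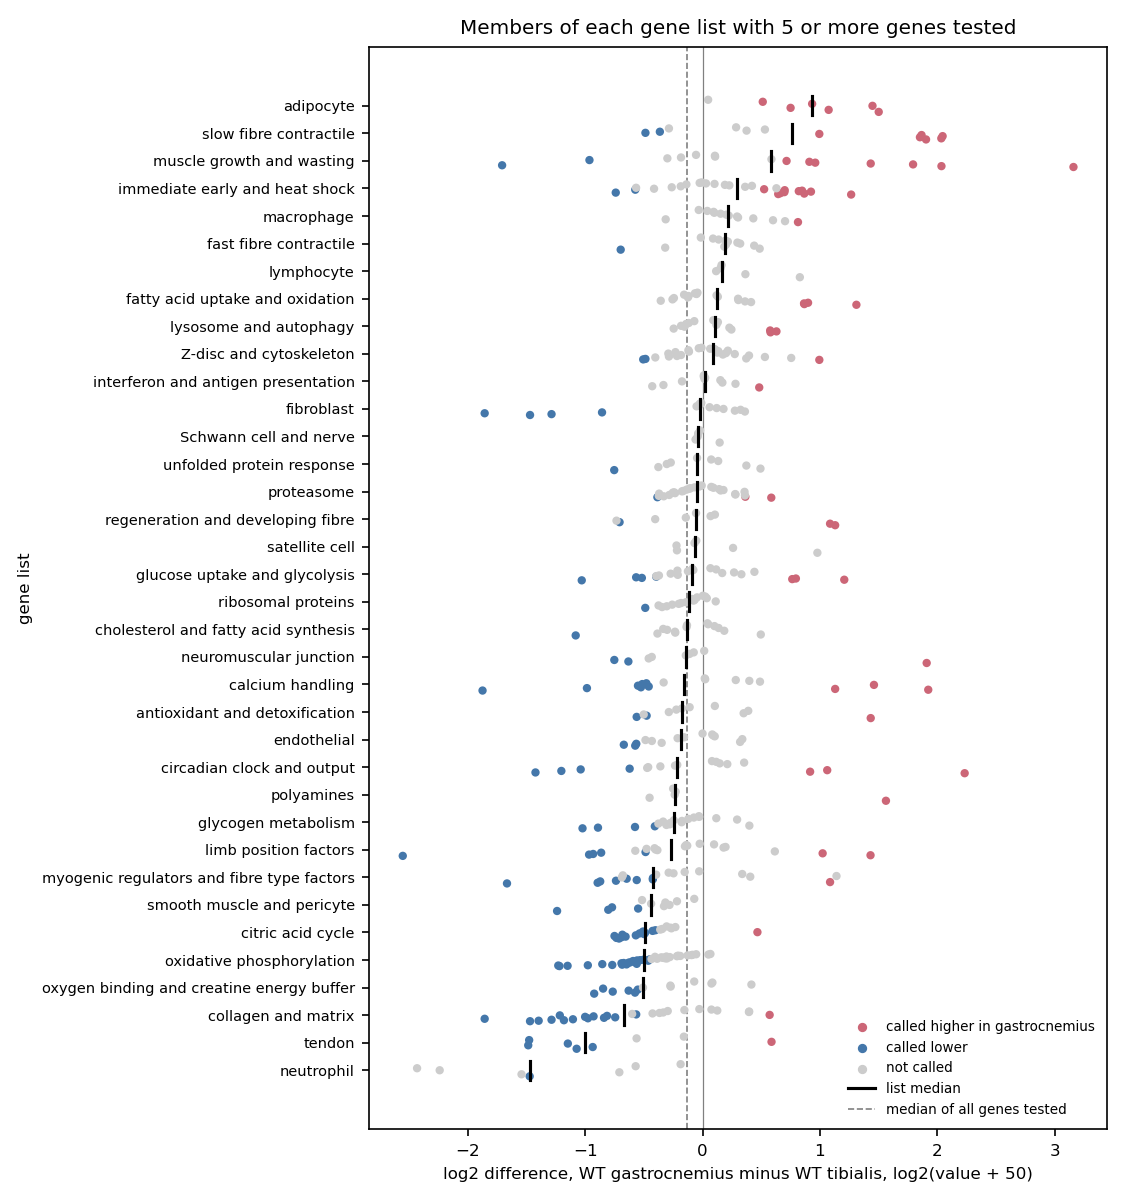
Log2 difference (gastrocnemius minus tibialis) of each gene of the lists with 5 or more genes tested, with 1 point for each gene, red where called higher, blue where called lower and grey otherwise, a black bar at the list median and a dashed line at the median of all genes (−0.13). Adipocyte (0.93) and slow fibre (0.76) medians lie farthest right, and tendon (−1.004), collagen (−0.67) and oxidative phosphorylation (−0.50) medians lie to the left, where the neutrophil median of −1.47 holds 1 called gene.

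The MGSKO arrays gave the muscle difference a second time, in animals that carry the knockout and in arrays not used above. Their gastrocnemius arrays held less liver transcript (8.26, 3.799 and 2.902% of WT liver in arrays 6 to 8, against 0.883 to 1.39% in MGSKO tibialis). Of 11718 probe sets 1998 were called (17.1%), 690 higher (5.89%) and 1308 lower (11.2%). Of the 2729 probe sets called in WT, 2551 (93.5%) had the same direction in MGSKO and 1188 (43.5% of the WT calls, 59.5% of the MGSKO calls) were called there in that direction, while 2 were called in the opposite one. Of the 464 called over 2-fold, 442 (95.3%) had the same direction and 290 (62.5%) were called. Of the probe sets not called in WT, 66.8% had the same direction and 7.99% were called in it. The MGSKO arrays share the title code sets of the WT arrays, so this does not separate muscle from code.

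**Figure D5:**
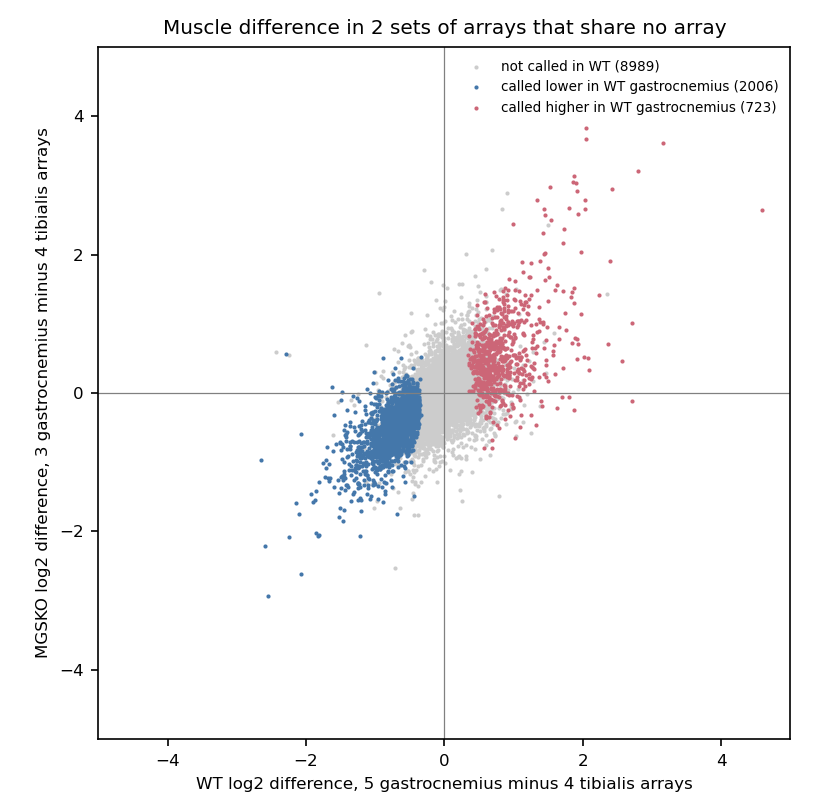
Log2 difference between gastrocnemius and tibialis for 11718 probe sets, WT arrays on the horizontal axis and MGSKO arrays on the vertical axis, coloured by the call in WT. Of the coloured points 93.5% lie on the same side of zero on both axes. Of the 723 red points, called higher in WT, 646 lie above zero on the vertical axis and 286 are also called higher in MGSKO.

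Of the slow fibre genes 5 of 12 were higher and 2 lower in the MGSKO arrays, with a median of 0.23. The 5 were Tnnt1, Myl2, Tnni1, Myh7 and Tnnc1, and the lower ones were Myl3 (−0.61, adjusted p = 0.0167), which was not called in WT, and Actn2 (−0.52, adjusted p = 0.0109). Tnnt1 read 8021, 5228 and 6550.3 in gastrocnemius and 218, 238, 509 and 985 in tibialis (3.83, adjusted p = 0.00196), Myh7 7383, 5482 and 5556 against 510.1, 317, 679.8 and 1540.3 (3.13, adjusted p = 0.00368) and Atp2a2 15301, 12284 and 12567 against 2014, 1960.5, 2009 and 2863 (2.58, adjusted p = 2.71e-04). Tbx1 read 430, 611 and 634 against 4481, 4682, 4478 and 4465 (−2.93, adjusted p = 1.61e-04) and Hoxd9 1192, 1124 and 1763 against 166, 304, 220.5 and 244 (2.31, adjusted p = 9.48e-04). Ddit4 (3.61), Cebpd (3.21), Fbxo32 (2.80) and Cdkn1a (2.67) were higher and Casq2 (−1.54), Aplnr (−2.61), Tfrc (−2.05) and Nrep (−1.75) lower, each called. Oxidative phosphorylation had 0 of 44 higher and 19 lower, collagen and matrix 2 higher and 12 lower of 26, and adipocyte markers 6 of 7 higher. The glycogen genes had 3 higher and 1 lower of 19 in MGSKO, where Gys1 itself is disrupted and read 165, 67.1 and 58.1 against 34.2, 34.6, 58.7 and 72.5.

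Some genes called in WT were not called in MGSKO. Myog read 284, 359.7 and 268 in MGSKO gastrocnemius and 414, 364, 627 and 414 in MGSKO tibialis (−0.49, adjusted p = 0.109), Lbx1 stood at −0.01 (adjusted p = 0.98), Csrp3 at −0.22 (adjusted p = 0.665), Scd2 at 0.01 (adjusted p = 0.968) and Rsrp1 at 0.51 (adjusted p = 0.647). Tested as a difference between the genotypes over all 16 arrays, the muscle difference itself passed for 2 probe sets (0.0171%), and both belong to Slc38a10, a transporter-like membrane protein (−1.32, SE 0.18, adjusted p = 0.0237, and −1.37, SE 0.21, adjusted p = 0.0280). It read 1462 ± 171 in WT gastrocnemius and 2008 ± 345 in WT tibialis by the first, with means of 1789 and 6163 in MGSKO. Scd2 and Myog stood short of the threshold in that test (1.09 and −1.58, adjusted p = 0.0585 for each), and Lbx1, Csrp3 and Rsrp1 did not pass it.

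WT gastrocnemius at 8 months, which held 1.42 to 2.70% of the liver level and 7.80 to 15.5 units of Kap, was compared with the range of WT tibialis for the 121 named genes called. In 82 of them all 8-month arrays lay outside that range on the gastrocnemius side, and in 39 the ranges overlapped. The genes had been called against these same tibialis arrays, so part of this count is built in. The share over all probe sets was not counted. No test was made, because age and title code differ from the 3-month arrays. The 8-month WT arrays share their title code series with arrays labelled GSL30 and not with the MGSKO arrays. Whether these mice are of the same WT stock as the 3-month mice cannot be told from the labels. Myh7 read 4158, 3373, 3649, 5461 and 4155, Tnnt1 3016, 2863, 4432, 4789.7 and 4279 and Atp2a2 8566, 8999.8, 10712, 9885 and 11590.3, all above the highest WT tibialis array at 3 months. Tbx1 read 489 to 730.5, Hoxd9 1307 to 1601, Ddit4 4224 to 11738, Fbxo32 18831 to 40834, Casq2 539.5 to 1245 and Ndufb10 7195 to 9120.5, each outside the range of WT tibialis on the same side as gastrocnemius at 3 months. The named collagen and tendon genes were among those that overlapped, except Thbs4 and Kera. Col1a1 read 3309, 6569.7, 6106, 2888 and 2352, above every WT gastrocnemius array at 3 months and within or below the range of WT tibialis. Col1a2 read 8127 to 16787 (WT tibialis 10279.6 to 17630.5), Col3a1 6269 to 14687 (10573 to 13034), Fmod 7861 to 11008 (6886 to 10980) and Lum 2329 to 6295 (3020.1 to 4450.2). The summed level of 29 collagen and matrix genes was 88534 to 140619 at 8 months, 60533 to 77414 in gastrocnemius at 3 months and 95036 to 124229 in tibialis. This sum includes 1 gene left out of the test as bright in liver. Sln overlapped as well, at 210.2, 63.1, 243, 450.4 and 491 against 236, 205, 264 and 375 in WT tibialis, and Adipoq read 9868 to 19784, above every WT tibialis array. The summed level of the 10 adipocyte markers was 109435 to 147498 at 8 months.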

How the data were processed

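The values are intensity on a linear scale as deposited by the authors. The sources used here do not give the software that summarised the probes. Each array had a mean near 1000 after the lowest and highest 2% were dropped. Values below 0 were set to 0, log2(value + 50) was taken, and 64 control probe sets, probe sets whose mean log2 value fell under the 40th percentile and the liver-bright set were left out. The lmFit and eBayes steps of limma 3.58.1 (R 4.3.3) were run on the 9 arrays, with Benjamini-Hochberg adjustment over 11718 probe sets, on the 7 MGSKO arrays, and on all 16 for the difference of differences. The number of arrays limits the precision. Values of 1 per array were compared by exact permutation over 126 regroupings. The liver share subtraction replaced each value by (value − share × WT liver mean) / (1 − share).

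Symbols came from the supplied platform annotation (20393 probe sets with 1 symbol, 691 with several, 1606 with none). Of 858 entries in 43 gene lists 761 had a probe set, 4 through another symbol. Each gene is given by its brightest probe set. Named were the 12 largest called differences each way without overlap, all tested slow and fast contractile genes, all called position and myogenic factors, up to 4 called genes of smallest p of every other list, and Gys1. The members and lists were chosen with earlier results of these data known. The steps were tested on simulated data.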

Additional observations from a re-analysis of the deposited data

Results flagged for a closer look

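In 19 of 278 groups of arrays tested 1 array lay far from the others (above Dixon's critical value for the group size), where chance gives about 1 in 20. In 10 of them the array was WT gastrocnemius array 2. It read 207011 for Tpm1 (others 37610 to 53829), 148552 for Myl1, 209285 for Tnnc2, 152629 for Actn3, 66952 for Myoz1, 173644 for Myh4, 156730 for Tnnt3, 264475 for Tnni2 (others 49447 to 71717) and 164566 for Mylpf. Its log2 ratio of 3′ to 5′ control signal was −0.75 (others −0.38 to −0.27). The difference in contractile level between array 2 and the other arrays goes with its higher Gapdh control signal. The liver transcript Alb was also highest in array 2 among the WT gastrocnemius arrays, above the WT liver mean. The part of array 2 in other results was not tested beyond the fits without it.

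Other single arrays stood apart in 1 gene each. In WT tibialis they were Cry2 at 499.6 in array 2 (others 106.2 to 169.8), Hoxd9 at 325 in array 4 (others 406 to 418.3), Slc2a3 at 651.3 in array 4 (others 798.8 to 805.8), Actn3 at 48378 in array 3 (others 53901 to 54682), Thbs4 at 7303 in array 2 (others 5567 to 5812) and Dbp at 652.9 in array 4 (others 1368 to 1404). In WT gastrocnemius they were Adig at 692.4 in array 5 (others 417.1 to 476), Myc at 519.1 in array 3 (others 430 to 454.1) and Rapsn at 516.1 in array 4 (others 673.2 to 715.5). The muscle difference of Slc38a10 differed between MGSKO and WT by −1.32 and −1.37 in its 2 probe sets.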

How the results depend on the processing

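Of 121 named genes called in WT, 81 kept their call whichever of the 9 arrays was left out and 71 in every alternative that tested them, and none changed direction in an alternative. The 2729 calls became 1366 without arrays 1, 2 and 4, 1672 with the replicate number as a block, 1672 with 1 probe set for each gene and 1726 to 3224 with 1 array left out. Higher calls (723) became 1653 with liver-bright probe sets kept, 367 with every probe set brighter in liver left out, 328 with the block, 1456 with array weights, 371 with 1 probe set for each gene and 426 to 978 with 1 array left out. Lower calls (2006) became 808 without arrays 1, 2 and 4, 1301 with 1 probe set for each gene and 1294 to 2246 with 1 array left out. Arrays whose removal moved a count by over 1.5 times were tibialis 1 and 3 for all calls, tibialis 1 and 3 and gastrocnemius 1, 3 and 5 for higher calls and tibialis 3 for lower calls. MGSKO calls (1998) became 1287 without the dim filter and 1008 to 1907 with 1 array left out (moved over 1.5 times by gastrocnemius 7 and 8 and tibialis 5 and 7). The 2 probe sets that differed between genotypes became 5 with a pseudocount of 200, 4 without the dim filter, 7 with a 60th percentile filter, 0 with the liver share subtracted and 0 to 6 with 1 array left out. The difference in liver transcript percent per array, 14.7, ranged from 11.9 to 17.9 with 1 array left out, each with an exact permutation p of 0.0286 or 0.0357. Here too the choice of liver probe sets partly fixes the tibialis level, so these p-values are not a test of the muscles. Arrays of the same number in the 2 muscles did not resemble each other (correlations of deviations −0.02, 0.07, −0.10 and −0.16, and 1 of 4 best with its own number). The deviations also hold the differences in liver level between gastrocnemius arrays. Whether such arrays share an animal therefore cannot be told from these values. Fast contractile genes that were not called changed sign. With quantile normalization, without arrays 1, 2 and 4 and with array weights in this order, the log2 difference of Tnnc2 was −0.0017, −0.11 and −0.091, that of Actn3 −0.028, −0.036 and −0.074, of Myh4 −0.066, −0.12 and −0.13, of Tnnt3 −0.12, −0.18 and −0.19 and of Tnni2 −0.071, −0.25 and −0.27. Myl1 stood at −0.010 with array weights, and Mylpf at 0.24 with the liver share subtracted and 0.040 with the block. With 1 array left out they ranged from −0.15 to 0.49 (Tnnc2), −0.11 to 0.38 (Actn3), −0.20 to 0.38 (Myh4), −0.23 to 0.30 (Tnnt3), −0.33 to 0.28 (Tnni2), −0.024 to 0.50 (Myl1) and −0.37 to 0.17 (Mylpf), lowest in each without gastrocnemius array 2. Apart from settings that test fewer genes or arrays, the cause of these moves was not tested. Probes not bright in either muscle were below the filter. Nothing is said of them apart from the summed marker levels and the kidney genes below, which were taken without the filter.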

Other observations

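Of 19 other kidney genes looked up after Kap had been seen, 18 had a probe set. By the brightest probe set of each, gastrocnemius arrays 1, 2 and 4 were the 3 highest of the 5 for 8 of them, and for 6 of these (Umod, Miox, Cdh16, Slc34a1, Lrp2 and Napsa) they also lay above every WT tibialis array. The others of the 8 were Slc5a2 and Cyp27b1. The remaining 10, among them Aqp1, Aqp2, Slc22a6, Slc12a1 and Nphs1, did not have this order. The share of all probe sets with this order was not counted, so these counts have no background. Many of the kidney readings also lay below the median of their array, which was 364.75 to 412.65 in WT gastrocnemius. Napsa also read 472.5 to 736 in WT gastrocnemius at 8 months, where Kap read 7.80 to 15.5 by its dimmer probe set. Umod, the main protein of urine, read 333, 428, 100.7, 335 and 80.6 in WT gastrocnemius arrays 1 to 5 by its brighter probe set and 48.5 to 75.3 in WT tibialis. Miox, an enzyme of inositol breakdown in the kidney, read 321, 757, 224, 509 and 257 against 71.1 to 164.7. Cdh16, a cadherin of kidney tubules, read 220.1, 175.1, 70.5, 316 and 34.5 against 36.9 to 72.3, and Slc34a1, the phosphate transporter of the proximal tubule, 444, 657, 235, 494 and 227 against 119 to 291. The albumin gene Alb read 36873, 245380, 36349, 55691 and 19232 in WT gastrocnemius arrays 1 to 5, against a WT liver mean of 63650. It read 318.6 to 510.1 in WT tibialis and 2288 to 10030.4 in WT gastrocnemius at 8 months. By the probe set brightest in liver, array 2 read 80312 for Ttr (WT liver 66497) and 78999 for Apoa1 (WT liver 85192). The liver share of 25.5% subtracted from array 2 does not describe these levels, and their cause was not tested.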
